A study of Mus musculus with 8 samples.

Results

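Transcript levels of 35 genes of glycolysis and the hypoxia response were followed in 4T1 cells, a mouse mammary carcinoma line that spreads to distant organs when grafted into mice. The genes were a given list of glucose and lactate transporters, glycolytic enzymes and targets of the hypoxia-inducible factor (HIF). They were found by matching mouse Entrez Gene numbers to symbols, and all 35 were among the 24454 genes listed. Each of the 3 lines expressed a short hairpin RNA from a lentivirus and had been selected with 4 μg/ml puromycin. A non-targeting hairpin gave the 3 control libraries (shCTRL), a hairpin against MEK5 gave 2 libraries (shMEK5, titled shMEK5-2), and a hairpin against ERK5 gave 3 (shERK5, titled shERK5-1), so each target had 1 hairpin. All cells were grown in Dulbecco's medium with 10% fetal bovine serum, 2 mM glutamine and 5% CO2, and no label names a low-oxygen treatment. The labels say neither whether each line is a clone or a pool nor whether replicates were separate cultures, so the p-values reflect the spread among these libraries alone, and that spread may be technical.

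Glycolysis splits glucose into pyruvate in the cytosol. Its upper steps, from hexokinase to triosephosphate isomerase, spend ATP, and its lower steps, from glyceraldehyde-3-phosphate dehydrogenase to pyruvate kinase, return more than was spent. Tumour cells often turn much of the pyruvate into lactate and export it with protons even where oxygen is present. When oxygen falls, prolyl hydroxylases of the Egln family no longer mark HIF-1α for destruction by the VHL complex, and HIF raises transcription of most of these enzymes together with genes of pH regulation, mitophagy and collagen hydroxylation. MEK5 (gene Map2k5) is the kinase that activates ERK5 (gene Mapk7), and the series title places this pair in the epithelial-mesenchymal transition and metastasis of breast cancer cells.

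The values are CPM, the reads of a gene scaled so that a library's gene-assigned reads sum to 1000000. Depth was 41397315 to 53714288 such reads per library, so that 1 read was worth 0.0186 to 0.0242 CPM. Map2k5 lay at 35.2 to 37.0 CPM in shCTRL and at 14.1 to 14.4 CPM in shMEK5, and Mapk7 at 25.6 to 28.6 CPM in shCTRL and at 6.33 to 6.66 CPM in shERK5, so each hairpin's own target was low in its libraries. Mapk7 was also at 18.7 to 20.4 CPM in shMEK5. The summed level of 5 epithelial markers (Krt8, Krt18, Krt19, Epcam and Cdh1) was 1630 to 1817 CPM in shCTRL, 1198 to 1261 CPM in shMEK5 and 1350 to 1401 CPM in shERK5. Krt18 and Krt8 carried most of that sum and fell in both knockdowns, Krt18 from a mean of 1111 CPM to 731 and 774 CPM and Krt8 from 549 CPM to 380 and 383 CPM. Cdh1, the epithelial cadherin, rose from 37.4 CPM to 55.6 CPM in shMEK5 and 112 CPM in shERK5 (log2 fold changes 0.56 and 1.56), Krt19 rose in both (0.39 and 1.02), and Epcam rose in shERK5 (1.06) and had a value of 0.10 in shMEK5 (limma adjusted p = 0.401). The part of these markers in the results below was not tested. Leukocyte markers summed to at most 3.73 CPM with Adgre1 and Cd3e at 0, endothelial markers to at most 0.338 CPM with Kdr at 0, and muscle and fat markers to at most 0.607 CPM with Adipoq at 0. Fibroblast markers summed to 22.9 to 47.3 CPM, nearly all from Pdgfra, with Dcn at 0.

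Differences were tested with limma on log2(CPM + 1) over the 11623 genes that reached 1 CPM in at least 2 libraries, and a gene was called at a Benjamini-Hochberg adjusted p under 0.05. Of the 35 genes, 33 were tested. Slc2a3, a high-affinity glucose transporter, lay between 0.0186 and 0.131 CPM, and Slc16a3, the lactate exporter MCT4, had at most 1 read in any library, and 0 reads leave room for 3 reads, or 0.0725 CPM. Neither was tested. In shMEK5, 23 of 33 genes were called against shCTRL, 11 higher and 12 lower, where 48.7% of all tested genes were called, 23.1% higher and 25.6% lower. In shERK5, 26 of 33 were called, 16 higher and 10 lower, where 63.3% of all tested genes were called, 32.0% higher and 31.3% lower. Between the knockdowns, 13 of 33 were called, 10 higher and 3 lower in shERK5, where 39.4% of all tested genes were called, 22.0% higher and 17.4% lower. Called with a log2 fold change of at least 0.5 in size were 7 of 33 in shMEK5 (14.4% of all tested genes), 7 in shERK5 (20.3%) and 3 between the knockdowns (10.3%). The groups compared did not overlap for 28 of 33 in shMEK5 (68.7% of all tested genes), 26 in shERK5 (67.9%) and 24 between the knockdowns (61.0%). The median log2 fold change of the 33 genes was -0.09 in shMEK5 and 0.08 in shERK5, beside -0.02 and 0.00 over all tested genes. The list thus had no common direction, and the median size of its changes without regard to sign was 0.30 in shMEK5 and 0.31 in shERK5, beside 0.20 and 0.25 over all tested genes. Both knockdowns were compared with the same shCTRL libraries, so their values are set side by side. Called lower in both were 7 genes (Slc2a1, Pfkl, Pfkp, Aldoa, Aldoc, Bnip3l and Ndrg1), and called higher in both were 10 (Hk2, Pfkfb3, Pgk1, Eno1, Ldha, Pdk3, Car12, Egln1, P4ha1 and P4ha2). The share of all tested genes called alike in both, or in opposite directions, was not computed. Such joint counts therefore only describe the list. The list was also chosen with earlier results of these data known, so its counts beside all tested genes are a description too.

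**Figure D1:**
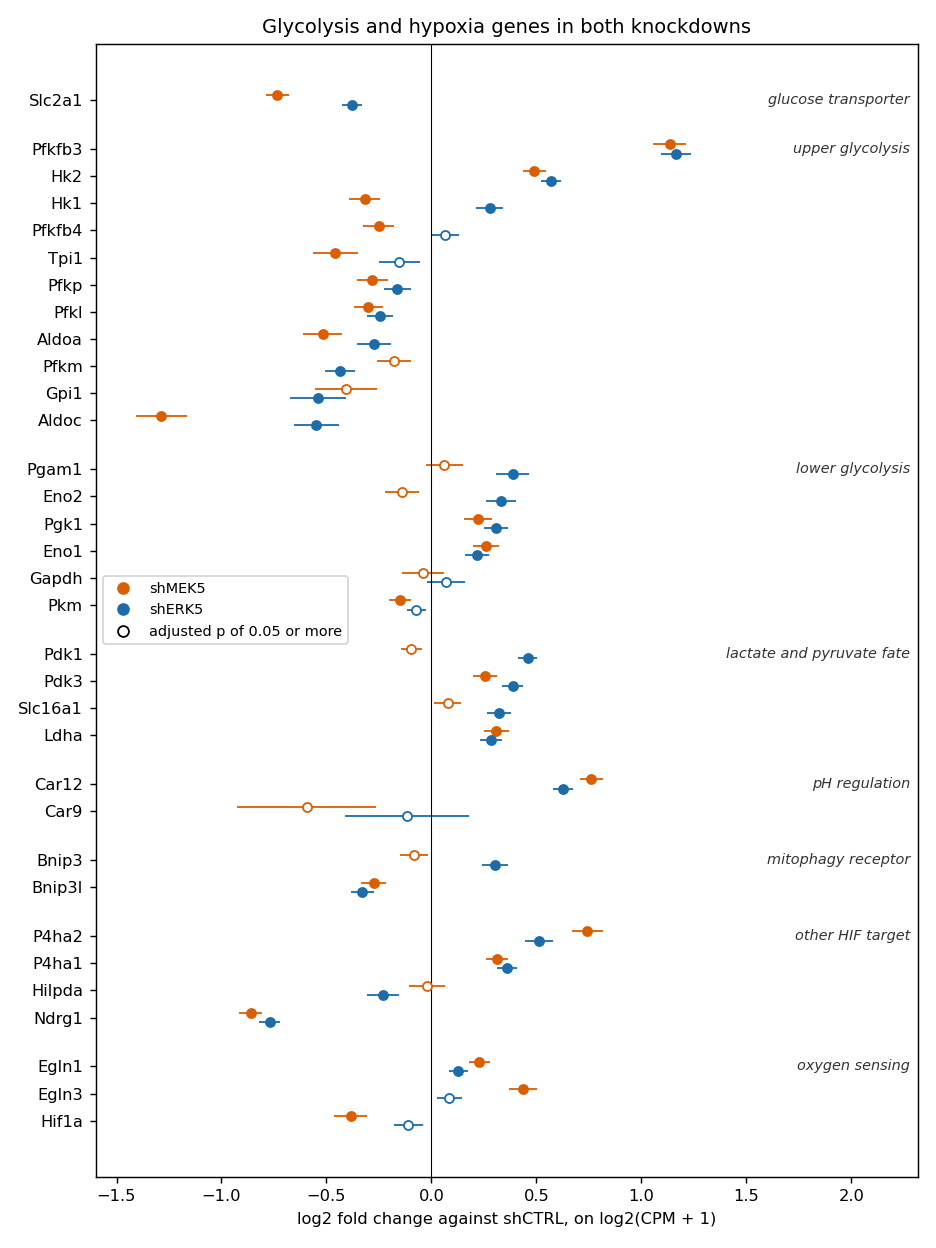
Log2 fold change against shCTRL on log2(CPM + 1) for the 33 tested genes, grouped by role, with shMEK5 in orange and shERK5 in blue. Points are limma estimates, lines are 1 standard error, and open points have an adjusted p of 0.05 or more. Pfkfb3 lies farthest to the right in both knockdowns and Aldoc in shMEK5 farthest to the left.

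Promoter letters of some of the genes that moved farthest are shown because HIF binds DNA at the core ACGTG or GCGTG. The sequences are the 250 bases before the first start listed by RefSeq (GRCm38.p6), 5′ to 3′ on the gene's strand, with both cores and their reverse complements CACGT and CACGC in capitals. Slc2a1 and Aldoc fell in both knockdowns, and Hk2, Pfkfb3 and Car12 rose in both.
Slc2a1 (chr4:119108495-119108744, plus strand): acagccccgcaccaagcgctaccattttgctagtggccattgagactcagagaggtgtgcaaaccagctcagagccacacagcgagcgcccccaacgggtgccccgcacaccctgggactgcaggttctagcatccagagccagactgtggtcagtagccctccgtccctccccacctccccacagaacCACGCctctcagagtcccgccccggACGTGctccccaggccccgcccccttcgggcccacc
Aldoc (chr11:78322823-78323072, plus strand): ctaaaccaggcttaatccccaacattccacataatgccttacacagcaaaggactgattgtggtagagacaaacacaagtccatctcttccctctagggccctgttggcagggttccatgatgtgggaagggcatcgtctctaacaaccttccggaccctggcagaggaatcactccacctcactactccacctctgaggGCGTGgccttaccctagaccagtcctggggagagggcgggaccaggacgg
Hk2 (chr6:82774455-82774704, minus strand): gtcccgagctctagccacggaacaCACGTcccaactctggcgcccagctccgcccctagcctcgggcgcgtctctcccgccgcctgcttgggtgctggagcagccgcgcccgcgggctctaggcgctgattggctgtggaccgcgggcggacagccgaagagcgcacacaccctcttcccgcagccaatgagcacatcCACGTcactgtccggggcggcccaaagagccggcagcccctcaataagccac
Pfkfb3 (chr2:11553930-11554179, minus strand): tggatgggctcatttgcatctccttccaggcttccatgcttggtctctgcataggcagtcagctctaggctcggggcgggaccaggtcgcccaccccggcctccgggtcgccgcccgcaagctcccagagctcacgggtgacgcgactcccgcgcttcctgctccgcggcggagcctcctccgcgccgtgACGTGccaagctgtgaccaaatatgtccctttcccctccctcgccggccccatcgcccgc
Car12 (chr9:66713436-66713685, plus strand): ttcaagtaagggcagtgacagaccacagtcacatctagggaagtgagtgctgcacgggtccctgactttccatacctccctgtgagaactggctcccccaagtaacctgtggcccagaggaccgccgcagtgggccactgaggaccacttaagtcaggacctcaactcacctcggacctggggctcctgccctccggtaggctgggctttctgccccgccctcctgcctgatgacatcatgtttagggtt
Of the 35 genes, 32 had a promoter in the RefSeq table, and the window searched there ran from 250 bases before to 50 after the start, on both strands. ACGTG was found in 19 of these 32 windows (59.4%), against 26.8% of the windows of 9246 tested genes and 19.7% of those of 27025 genes in all. GCGTG was found in 17 (53.1%), against 53.7% and 32.5%. A palindromic CACGTG holds ACGTG on both strands. ACGTG was found in 8 of the 10 genes called higher in both knockdowns. It was also found in 2 of the 5 genes called lower in both that had a window, namely Slc2a1 and Aldoc. GCGTG was found in 6 of these 10 and 4 of these 5, and either core in 9 of the 10 and 4 of the 5. Ndrg1 and Bnip3l, also called lower in both, had no window. The counts rest on each gene's first listed start. Aldoa held neither core there but held CACGT in the windows of its other listed starts. Car12, which rose in both, held neither core in its window. The list was made to hold HIF targets, so its share of ACGTG beside other genes is tied to that choice and tells nothing about the knockdowns. The counts by direction of change were not tested. A match is a description of the letters only.

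Glucose uptake comes first in the pathway, and Slc2a1, the only glucose transporter of the list that was tested, was lower in both knockdowns. Uptake itself was not measured. Among glucose transporters of the further lists, Slc2a6 rose in shMEK5 and shERK5 (log2 fold changes 0.35 and 0.60). Slc2a8 fell in both (-0.37 and -0.41). Slc2a1 encodes GLUT1, the main basal glucose transporter of most cultured cells. It lay at 122, 115 and 110 CPM in the 3 shCTRL libraries, at 69.0 and 68.9 CPM in shMEK5 and at 89.4, 87.1 and 89.2 CPM in shERK5. All 5 knockdown libraries were below all shCTRL libraries, and the 2 knockdowns did not overlap, with shMEK5 the lower. Slc2a1 fell to 59.8% of the shCTRL mean in shMEK5 (log2 fold change -0.73 ± 0.05, SE, limma adjusted p = 3.54e-06) and to 76.7% in shERK5 (-0.38 ± 0.05, adjusted p = 6.71e-05). The difference between the knockdowns was itself called, at 0.36 ± 0.05 (limma adjusted p = 0.000488).

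**Figure D2:**
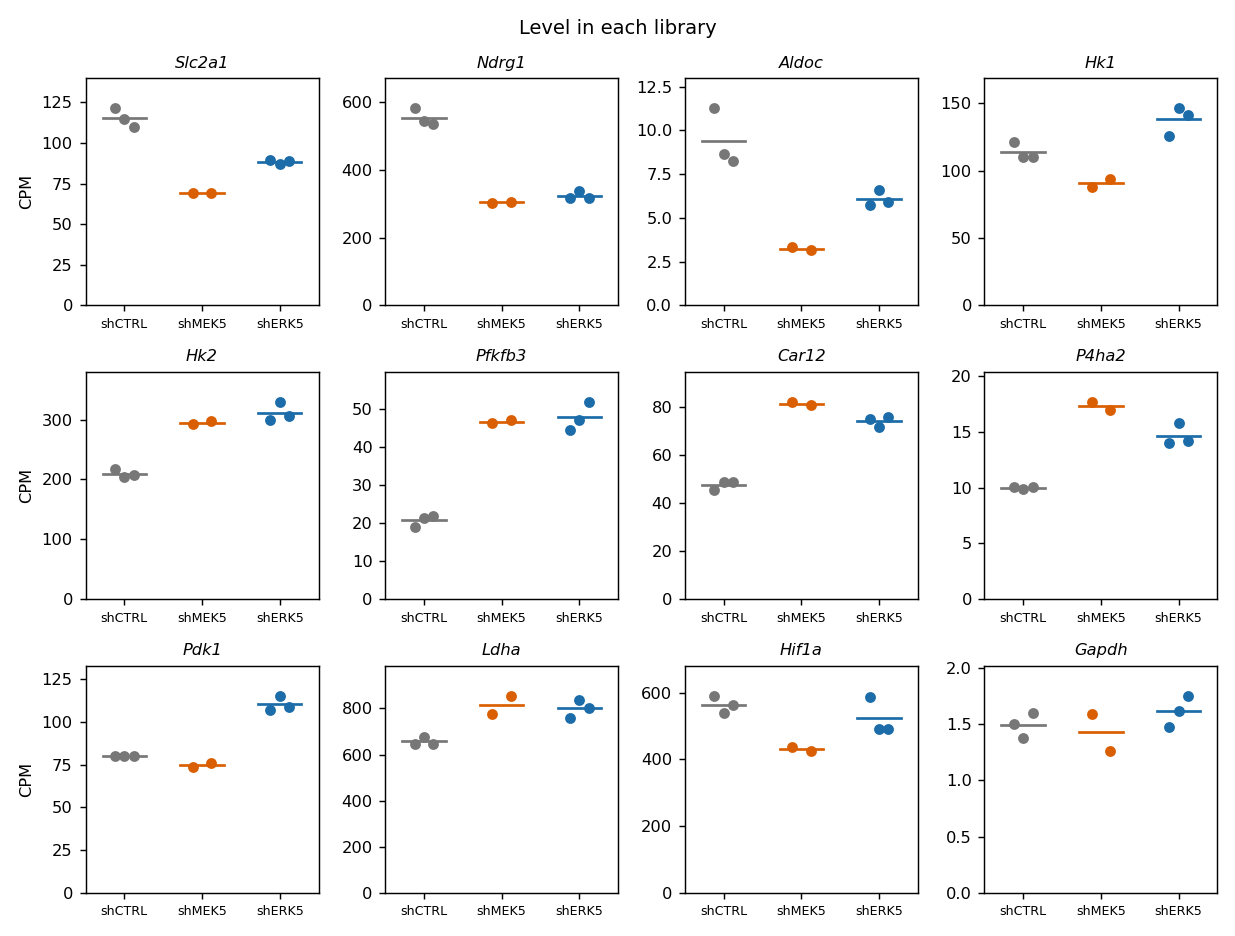
CPM of 12 genes in each library, with shCTRL in grey, shMEK5 in orange and shERK5 in blue; points are libraries, bars are group means and each vertical axis starts at 0. Slc2a1, Ndrg1 and Aldoc are lower in every knockdown library than in every shCTRL library, Hk2, Pfkfb3, Car12, P4ha2 and Ldha are higher, and Gapdh lies between 1.26 and 1.75 CPM in all 8.

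The upper steps of glycolysis held changes in both directions. Among its 11 genes the test called 2 higher and 7 lower in shMEK5, and 3 higher and 6 lower in shERK5. The hexokinases, which trap glucose in the cell as glucose-6-phosphate, did not move alike. Hk2, the isozyme typical of tumours and muscle, lay at 217, 204 and 208 CPM in shCTRL, at 292 and 297 CPM in shMEK5 and at 300, 330 and 306 CPM in shERK5. Every knockdown library was above every shCTRL library. Hk2 rose by 0.49 ± 0.05 in shMEK5 (limma adjusted p = 5.5e-05) and by 0.57 ± 0.05 in shERK5 (adjusted p = 4.78e-06), and the knockdowns differed by 0.08 ± 0.05 (adjusted p = 0.273). Hk1, the widely expressed isozyme, lay at 121, 110 and 110 CPM in shCTRL, at 88.1 and 93.7 CPM in shMEK5 and at 126, 146 and 142 CPM in shERK5. The 3 groups did not overlap, with shMEK5 below and shERK5 above shCTRL. Hk1 was the only one of the 33 genes called in opposite directions, lower in shMEK5 (-0.32 ± 0.07, limma adjusted p = 0.00452) and higher in shERK5 (0.28 ± 0.06, adjusted p = 0.00363), with a difference of 0.60 ± 0.07 between the knockdowns (adjusted p = 0.00013).

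Pfkfb3 had the largest rise of the 33 genes in both knockdowns. Its enzyme makes fructose-2,6-bisphosphate, the strongest activator of phosphofructokinase. Pfkfb3 lay at 19.0, 21.3 and 21.9 CPM in shCTRL, at 46.3 and 47.1 CPM in shMEK5 and at 44.6, 47.0 and 51.9 CPM in shERK5. The knockdowns overlapped each other and lay well apart from shCTRL, at 225% and 230% of its mean. The log2 fold change was 1.13 ± 0.08 in shMEK5 (limma adjusted p = 2.81e-06) and 1.17 ± 0.07 in shERK5 (adjusted p = 5.32e-07). Pfkfb4, a related enzyme and known HIF target, did not follow it. It lay at 17.2 to 17.8 CPM in shCTRL, fell to 13.5 and 15.7 CPM in shMEK5 (-0.25, limma adjusted p = 0.0175) and lay at 17.9 to 18.7 CPM in shERK5 (0.07, adjusted p = 0.408).

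The subunits of phosphofructokinase itself, the committed step, were lower or not called. Pfkl, the liver-type subunit, lay at 169 to 204 CPM in shCTRL and fell in shMEK5 (-0.30, limma adjusted p = 0.00501) and shERK5 (-0.24, adjusted p = 0.00589). Pfkp, the platelet type, lay at 83.0 to 98.4 CPM in shCTRL and fell in shMEK5 (-0.28, limma adjusted p = 0.00872) and narrowly in shERK5 (-0.16, adjusted p = 0.0482). Pfkm, the muscle type, fell in shERK5 from 38.9 to 44.7 CPM in shCTRL to 27.5 to 31.2 CPM (-0.44, limma adjusted p = 0.000452), and its shMEK5 value of -0.18 was not called (adjusted p = 0.0947). The subunits that passed the test thus moved against their regulator Pfkfb3.

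Both aldolases, which split fructose-1,6-bisphosphate into triose phosphates, fell. Aldoc, the minor isozyme here, lay at 11.3, 8.66 and 8.28 CPM in shCTRL, at 3.33 and 3.13 CPM in shMEK5 and at 5.72, 6.59 and 5.89 CPM in shERK5. The 3 groups did not overlap, and shMEK5 was lowest, at 34.4% of the shCTRL mean. The log2 fold change was -1.29 ± 0.12 in shMEK5 (limma adjusted p = 1.78e-05) and -0.55 ± 0.11 in shERK5 (adjusted p = 0.00124), and the knockdowns differed by 0.74 ± 0.12 (adjusted p = 0.000829). Aldoa, the main isozyme, lay at 813, 753 and 672 CPM in shCTRL, at 481 and 560 CPM in shMEK5 and at 598, 663 and 587 CPM in shERK5. Every knockdown library was below the lowest shCTRL library, by little for shERK5 replicate 2. Aldoa fell by 0.52 in shMEK5 (SE 0.09, limma adjusted p = 0.00151) and by 0.27 in shERK5 (SE 0.08, adjusted p = 0.0164).

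Gpi1, glucose-6-phosphate isomerase, spread widely within each group. It lay at 185, 151 and 140 CPM in shCTRL, at 109 and 129 CPM in shMEK5 and at 93.8, 125 and 107 CPM in shERK5. All knockdown libraries were below all shCTRL libraries. Gpi1 fell by 0.54 ± 0.13 in shERK5 (limma adjusted p = 0.00786), and its shMEK5 value of -0.41 ± 0.15 was not called (adjusted p = 0.0528). Tpi1, triosephosphate isomerase, fell in shMEK5 from 275 to 338 CPM to 205 and 245 CPM (-0.46, limma adjusted p = 0.00787), and its shERK5 value of -0.15 was not called (adjusted p = 0.2). In shMEK5, leaving out shMEK5 replicate 1 ended the limma calls of Pfkp (-0.26, adjusted p = 0.058), Tpi1 (-0.33, adjusted p = 0.0694) and Pfkfb4 (-0.15, adjusted p = 0.189), while Gpi1 was called without shCTRL replicate 3 (-0.49, adjusted p = 0.0392), shERK5 replicate 1 or shERK5 replicate 2. In shERK5, leaving out shCTRL replicate 1 or shERK5 replicate 3 ended the call of Aldoa (-0.21 and -0.24, limma adjusted p = 0.0585 and 0.0605), and the call of Pfkp was lost under 10 of 19 alternatives.

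In the lower steps of glycolysis, which gain ATP, the called genes were mostly higher. Of these 6 genes, 2 were called higher and 1 lower in shMEK5, and 4 higher and none lower in shERK5. Pgk1, phosphoglycerate kinase, rose from 203 to 218 CPM in shCTRL to 239 and 250 CPM in shMEK5 (0.22, limma adjusted p = 0.0168) and 245 to 282 CPM in shERK5 (0.31, adjusted p = 0.000987). Eno1, the main enolase, rose from 378 to 406 CPM to 443 and 487 CPM in shMEK5 (0.26, limma adjusted p = 0.00673) and 424 to 471 CPM in shERK5 (0.22, adjusted p = 0.0065). For these genes every knockdown library was above every shCTRL library. Pgam1, phosphoglycerate mutase, rose in shERK5 (0.39, limma adjusted p = 0.00176) and had a value of 0.06 in shMEK5 (adjusted p = 0.592). Eno2, the enolase first known from neurons, rose in shERK5 from 21.8 to 24.7 CPM to 29.7 to 30.0 CPM (0.33, limma adjusted p = 0.0021) and had a value of -0.14 in shMEK5 (adjusted p = 0.168). Eno2 was called between the knockdowns, at 0.47 ± 0.08 (limma adjusted p = 0.000987).

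Pkm, pyruvate kinase, had the highest level of the list, at 2591 to 2832 CPM in shCTRL, 2355 and 2547 CPM in shMEK5 and 2570 to 2620 CPM in shERK5. Its fall in shMEK5 was small (-0.15, limma adjusted p = 0.0337) and was lost under 10 of 19 alternatives, without shMEK5 replicate 1 for example, where it was -0.09 (adjusted p = 0.271). In shERK5 it was -0.07 (limma adjusted p = 0.204). The shMEK5 call of Pgk1 ended without shCTRL replicate 2 (limma adjusted p = 0.0533) or shMEK5 replicate 2 (adjusted p = 0.117), and that of Eno1 without shMEK5 replicate 2 (adjusted p = 0.085).

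Gapdh, glyceraldehyde-3-phosphate dehydrogenase, is among the most abundant transcripts of most cells, yet it was listed at 1.499, 1.38 and 1.60 CPM in shCTRL, at 1.59 and 1.26 CPM in shMEK5 and at 1.47, 1.62 and 1.75 CPM in shERK5. These values rest on 210, 126 and 243 reads over the libraries of each group. The groups overlapped, and the fold changes of -0.04 in shMEK5 (limma adjusted p = 0.764) and 0.07 in shERK5 (adjusted p = 0.529) were not called. The gene (Entrez 14433) lies on the minus strand of chromosome 6, from 125161852 to 125166467 in GRCm38, and its transcript has many processed copies in the mouse genome. Of all 50-base words of its transcript, 90.4% also occur in transcripts of other genes of the GENCODE annotation, and 85.8% of all 100-base words do. The shared words come from 213 annotated pseudogenes at 50 bases and 82 at 100 bases. A run of its coding sequence shows what such a shared word looks like: the 50 bases from coding position 493 to 542 stand letter for letter in 80 annotated pseudogenes, and no letter is singled out by a capital.
Gapdh: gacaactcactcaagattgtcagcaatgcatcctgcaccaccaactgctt
The sources used here do not say how reads that match several places were treated, so the Gapdh level is uncertain, and the part of shared sequence in its low value was not tested.

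Other genes of the list also shared sequence with copies or with further genes. The share of 50-base words found in other genes was 72.2% for Eno1 (8 pseudogenes and Eno1b), 68.0% for Pgk1 (5 pseudogenes), 48.9% for Bnip3 (4) and 41.5% for Pgam1 (4). It was 30.5% for Pkm (7), 25.1% for Bnip3l (1), 16.6% for Ldha (14), 13.5% for Aldoa (5 and Aldoart1) and 7.51% for Tpi1 (2). For Gpi1 it was 19.6%, from 3 pseudogenes and many genes of other names. At 100 bases the share was still 67.0% for Pgk1, 59.0% for Eno1 and 39.7% for Pgam1. It was 18.8% for Bnip3 and 17.2% for Bnip3l, but 6.82% for Pkm, 4.92% for Gpi1, 1.28% for Ldha and 0 for Aldoa. The rises of Pgk1, Eno1 and Pgam1, and of Bnip3 below, are uncertain to that extent, as is the fall of Bnip3l below. Each of the others had a share below 0.3%. No gene of the list had read numbers identical to those of another gene across the 8 libraries.

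**Figure D3:**
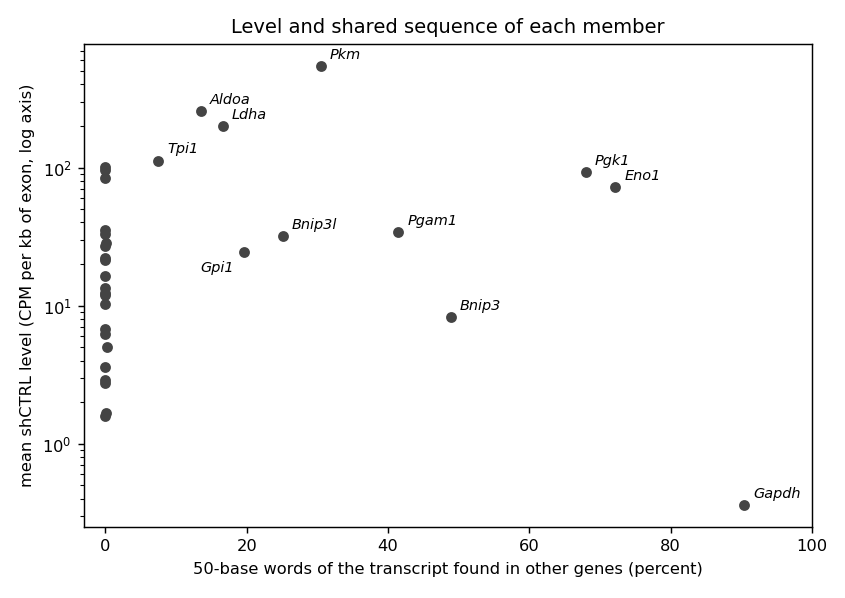
Mean shCTRL level in CPM per kb of exon on a log axis against the percent of 50-base words of each gene's transcript that occur in transcripts of other genes, with 1 point per gene for the 33 tested genes. Gapdh stands alone at the lower right, with 90.4% shared words and 0.361 CPM per kb, and Pgk1 and Eno1 lie at 93.2 and 72.1 CPM per kb with 68.0% and 72.2%.

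Levels of different genes were compared per kb of exon. In shCTRL the highest were Pkm at 544, Aldoa at 256, Ldha at 198, Tpi1 at 112 and Slc16a1 at 101 CPM per kb. Hif1a lay at 95.7, Pgk1 at 93.2, Ndrg1 at 83.9 and Eno1 at 72.1 CPM per kb. Gapdh ranked 33 of 35 at 0.361 CPM per kb, above only Slc2a3 and Slc16a3. Slc2a1, at 32.9 CPM per kb, carried nearly all the reads of the listed glucose transporters, as Slc16a1 did for the lactate transporters.

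The genes that decide the fate of pyruvate rose or were not called. Of the 4 tested, 2 rose in shMEK5 and 4 in shERK5, and none fell. Ldha, the lactate dehydrogenase subunit that favours lactate formation, rose from 646 to 678 CPM in shCTRL to 774 and 856 CPM in shMEK5 (0.31, limma adjusted p = 0.00167) and 760 to 837 CPM in shERK5 (0.28, adjusted p = 0.000908). Pdk3, a kinase that turns off pyruvate dehydrogenase, rose from 30.2 to 30.8 CPM to 36.2 and 37.0 CPM in shMEK5 (0.25, limma adjusted p = 0.00418) and 38.7 to 41.9 CPM in shERK5 (0.39, adjusted p = 8.61e-05). Its relative Pdk1 parted the knockdowns. Pdk1 lay at 80.0, 80.0 and 80.1 CPM in shCTRL, at 73.7 and 76.0 CPM in shMEK5 (-0.09, limma adjusted p = 0.145) and at 107, 116 and 109 CPM in shERK5 (0.46, adjusted p = 1.23e-05). The knockdowns differed by 0.55 ± 0.05 in Pdk1 (limma adjusted p = 2.08e-05). Slc16a1, the lactate and proton carrier MCT1, rose in shERK5 from 429 to 474 CPM to 524 to 584 CPM (0.32, limma adjusted p = 0.000598) and had a value of 0.08 in shMEK5 (adjusted p = 0.334).

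Of the carbonic anhydrases, which buffer the acid of glycolytic cells at their surface, Car12 rose and Car9 was not called. Car12 lay at 45.6, 48.6 and 48.6 CPM in shCTRL, at 82.2 and 80.7 CPM in shMEK5 and at 74.8, 71.5 and 76.0 CPM in shERK5. Every knockdown library was far above every shCTRL library, with a log2 fold change of 0.76 ± 0.05 in shMEK5 (limma adjusted p = 3e-06) and 0.63 ± 0.05 in shERK5 (adjusted p = 2.35e-06). Car9, a widely used marker of HIF activity, was low and uneven, at 5.82, 3.23 and 2.43 CPM in shCTRL, 2.03 and 2.10 CPM in shMEK5 and 2.31, 5.22 and 2.77 CPM in shERK5. Its values of -0.59 ± 0.33 in shMEK5 (limma adjusted p = 0.174) and -0.12 ± 0.30 in shERK5 (adjusted p = 0.75) had wide errors, and without shCTRL replicate 1 the shERK5 value was 0.16.

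The mitophagy receptors, outer mitochondrial membrane proteins that hand mitochondria to autophagy, moved apart in shERK5. Bnip3 rose there from 18.2 to 19.2 CPM to 22.2 to 24.4 CPM (0.30, limma adjusted p = 0.00137), while Bnip3l fell from 119 to 127 CPM to 96.6 to 100.3 CPM (-0.33, adjusted p = 0.000353). In shMEK5, Bnip3l fell as well (-0.27, limma adjusted p = 0.00346; without shMEK5 replicate 2, -0.19 and 0.0532), and Bnip3 had a value of -0.08 (adjusted p = 0.333).

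Among the other HIF targets, Ndrg1 had a large fall in both knockdowns. Ndrg1, a gene induced by hypoxia and by cell differentiation, lay at 583, 544 and 534 CPM in shCTRL, at 303 and 305 CPM in shMEK5 and at 317, 339 and 317 CPM in shERK5. All knockdown libraries were far below all shCTRL libraries, with means at 54.9% of shCTRL in shMEK5 and 58.5% in shERK5. The log2 fold change was -0.86 ± 0.05 (limma adjusted p = 1.67e-06) and -0.77 ± 0.05 (adjusted p = 6.29e-07), and the difference between the knockdowns, 0.09 ± 0.05, was not called (adjusted p = 0.213). Its exons overlap genes of the opposite strand over 556 bases, and the sources used here do not state whether reads were counted by strand. Such overlap was also 748 bases for Pfkp, 741 for Gpi1 and 504 for Bnip3, with less in some other genes. Pkm overlaps a gene of its own strand over 767 bases.

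The α subunits of collagen prolyl 4-hydroxylase, which matures collagen in the endoplasmic reticulum, rose. P4ha2 lay at 10.03, 9.85 and 10.03 CPM in shCTRL, at 17.7 and 17.0 CPM in shMEK5 and at 14.0, 15.8 and 14.2 CPM in shERK5. The 3 groups did not overlap, and shMEK5 was highest, with a log2 fold change of 0.74 ± 0.07 (limma adjusted p = 2.57e-05) against 0.51 ± 0.07 in shERK5 (adjusted p = 7.58e-05). P4ha1 rose by 0.31 in shMEK5 (limma adjusted p = 0.000883) and by 0.36 in shERK5 (adjusted p = 9.81e-05). Hilpda, a lipid droplet protein, fell in shERK5 from 28.9 to 30.8 CPM to 23.3 to 28.5 CPM (-0.23, limma adjusted p = 0.0232) and had a value of -0.02 in shMEK5 (adjusted p = 0.871). The shERK5 call of Hilpda ended without shCTRL replicate 2 (-0.21, limma adjusted p = 0.0747), shERK5 replicate 1 (-0.17, 0.0741) or shERK5 replicate 3 (-0.20, 0.0819).

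Of the 3 oxygen-sensing genes, Hif1a and Egln3 differed between the knockdowns, and Egln1 had a value of -0.10, shERK5 minus shMEK5 (limma adjusted p = 0.133). Hif1a, the regulated subunit of HIF-1, lay at 591, 539 and 563 CPM in shCTRL, at 438 and 426 CPM in shMEK5 and at 588, 492 and 493 CPM in shERK5. It fell in shMEK5 (-0.38 ± 0.08, limma adjusted p = 0.00222), whose libraries were below all others. In shERK5 the value of -0.11 ± 0.07 was not called (limma adjusted p = 0.183); shERK5 replicate 1 lay within the shCTRL range, and without it the value was -0.20 (adjusted p = 0.00611). The Hif1a difference of 0.27 between the knockdowns (limma adjusted p = 0.0167) lost its call without shMEK5 replicate 1 (0.29, adjusted p = 0.0684) or shMEK5 replicate 2 (0.25, adjusted p = 0.0979). HIF-1α is controlled mainly at the protein, which was not measured here.

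Egln3, a prolyl hydroxylase that is itself induced by HIF, rose in shMEK5 from 41.4 to 46.2 CPM to 58.4 and 60.6 CPM (0.44, limma adjusted p = 0.000407) and had a value of 0.08 in shERK5 (adjusted p = 0.234). The knockdowns differed by -0.35 ± 0.07 in Egln3 (limma adjusted p = 0.00197). Egln1, the main oxygen sensor of most cells, rose in shMEK5 (0.23, limma adjusted p = 0.00363) and slightly in shERK5 (0.13, adjusted p = 0.0287). That last call ended without shCTRL replicate 1 (0.10, limma adjusted p = 0.081), shCTRL replicate 2 (0.12, 0.0687), shERK5 replicate 2 (0.13, 0.0631) or shERK5 replicate 3 (0.12, 0.0939).

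Compared with each other, the knockdowns differed in 13 of the 33 genes. Higher in shERK5 were Slc2a1, Hk1, Pfkfb4, Aldoc, Pgam1, Eno2, Slc16a1, Pdk1, Bnip3 and Hif1a, and lower were Pfkm, Egln3 and P4ha2. The log2 difference, shERK5 minus shMEK5, was largest for Aldoc (0.74), Hk1 (0.60) and Pdk1 (0.55). It was 0.39 for Bnip3, 0.33 for Pgam1, 0.32 for Pfkfb4, 0.27 for Hif1a, 0.24 for Slc16a1, -0.26 for Pfkm and -0.23 for P4ha2. Without shMEK5 replicate 1, 7 of the 33 were called, 6 higher and 1 lower. Without shMEK5 replicate 2 or shERK5 replicate 1, 1 was called lower.

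Ratios between isozymes within a library need no scaling between libraries. The ratio of Hk2 to Hk1 reads was 1.79, 1.85 and 1.89 in shCTRL, 3.32 and 3.17 in shMEK5 and 2.38, 2.25 and 2.16 in shERK5. The log2 ratio was 0.88 ± 0.04 (SD, n = 3), 1.70 ± 0.05 (n = 2) and 1.18 ± 0.07 (n = 3), so that the groups did not overlap and the balance lay most towards Hk2 in shMEK5. The log2 ratio of Pdk1 to Pdk3 was 1.39 ± 0.02 in shCTRL, 1.03 ± 0.01 in shMEK5 and 1.46 ± 0.02 in shERK5, again without overlap. That of Aldoc to Aldoa was -6.32 ± 0.14, -7.33 ± 0.22 and -6.67 ± 0.04. That of Eno2 to Eno1 was -4.04 ± 0.10, -4.45 ± 0.06 and -3.92 ± 0.07, and shMEK5 lay apart. That of Bnip3 to Bnip3l was -2.72 ± 0.07, -2.53 ± 0.06 and -2.07 ± 0.08, and that of P4ha1 to P4ha2 3.19 ± 0.04, 2.71 ± 0.10 and 3.00 ± 0.09. The log2 ratio of Pfkp to Pfkl hardly moved, at -1.06 ± 0.03, -1.04 ± 0.03 and -0.98 ± 0.08. That of Pfkm to Pfkl was -2.20 ± 0.08, -2.08 ± 0.07 and -2.40 ± 0.11, and every shERK5 library was below every shCTRL library. These ratios were not tested.

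**Figure D4:**
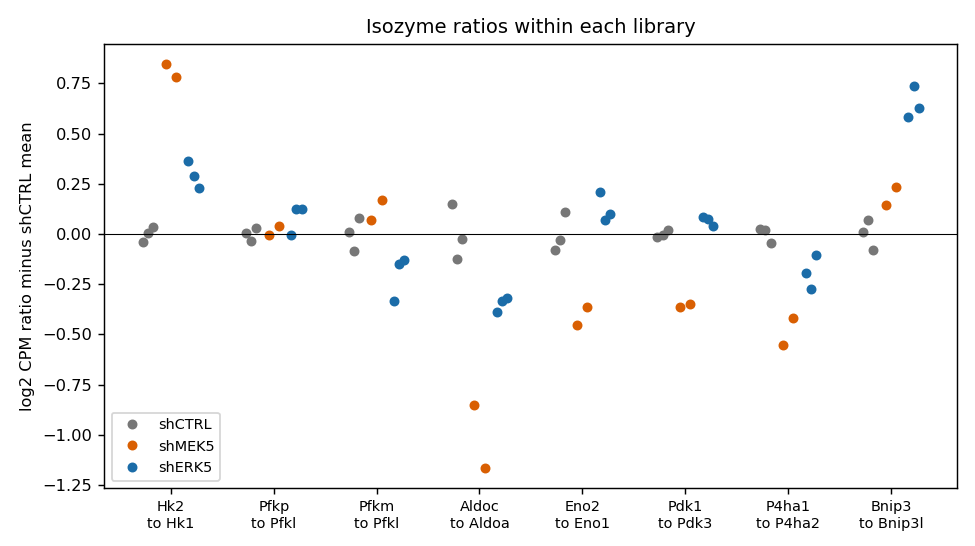
Log2 ratio of the CPM of paired isozymes in each library, minus the shCTRL mean of that pair, with shCTRL in grey, shMEK5 in orange and shERK5 in blue; points are libraries and the line marks the shCTRL mean. The shMEK5 points lie highest for Hk2 to Hk1 and lowest for Aldoc to Aldoa, Eno2 to Eno1, Pdk1 to Pdk3 and P4ha1 to P4ha2, and the shERK5 points lie highest for Bnip3 to Bnip3l.

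Libraries of a group also differed among themselves in a shared way. Hk1, Hk2, Gpi1, Pfkm, Pfkp, Aldoa, Tpi1, Pgk1, Slc16a1, Pdk3, Car9 and Ndrg1 were highest in shCTRL replicate 1, shMEK5 replicate 2 and shERK5 replicate 2 of their groups. These are 12 of 33 genes (36.4%), beside 1756 of 11623 tested genes (15.1%). The 3 libraries were singled out after their values were seen, and genes are not independent, so that the counts are a description.

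Other genes of these pathways were taken from lists of their own. These were likewise chosen with earlier results of these data known, so their counts and medians are a description. Of 23 further genes of glycolysis and transport, 9 were tested, with 7 called higher and 1 lower in each knockdown, with a median log2 fold change of 0.22 in shMEK5 and 0.35 in shERK5. Of the untested, 7 were at 0 in all libraries, among them Pklr, a pyruvate kinase of liver and red cells, and Ldhc, a lactate dehydrogenase of testis. Bsg, the chaperone that carries MCT1 to the cell surface, rose by 0.20 in shMEK5 (limma adjusted p = 0.00675) and by 0.53 in shERK5 (adjusted p = 3.36e-06). Pfkfb2 rose by 0.42 in shERK5 (limma adjusted p = 0.000204) and had a value of -0.14 in shMEK5 (adjusted p = 0.115).

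Pyruvate oxidation and carboxylation genes were mostly not called in shMEK5, with 1 of 11 higher and 2 lower, and divided in shERK5, with 4 higher and 3 lower. Mpc2, a subunit of the mitochondrial pyruvate carrier, rose by 0.50 in shERK5 (limma adjusted p = 5.99e-05), with 0.13 in shMEK5 (adjusted p = 0.155). Pck2, mitochondrial phosphoenolpyruvate carboxykinase, fell from 186 ± 24.0 CPM (SD, n = 3) to 111 ± 4.22 CPM (n = 2) in shMEK5 and 79.5 ± 6.35 CPM (n = 3) in shERK5. Its log2 fold change was -0.74 (limma adjusted p = 0.000359) and -1.21 (adjusted p = 4.65e-06).

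The pentose phosphate pathway leaves glycolysis at glucose-6-phosphate. In shMEK5, 3 of 12 tested genes of this pathway and of glycogen rose and 5 fell, and in shERK5 6 rose and 4 fell. Both NADPH-making dehydrogenases of the oxidative arm, chosen after their values were seen, fell: G6pdx by 0.96 in shMEK5 (limma adjusted p = 0.00012) and 0.68 in shERK5 (adjusted p = 0.000286), and Pgd by 0.69 (adjusted p = 0.00203) and 0.68 (adjusted p = 0.000783). Pgls, the lactonase between them, was not called (-0.08, limma adjusted p = 0.513, and 0.10, adjusted p = 0.34). The genes of the non-oxidative arm moved in either direction. Tkt, transketolase, fell from a mean of 637 CPM to 554 CPM in shMEK5 (-0.20, limma adjusted p = 0.0116; without shMEK5 replicate 1, -0.16 and 0.0982) and 556 CPM in shERK5 (-0.20, adjusted p = 0.00512). Rpe, which interconverts pentose phosphates, rose by 0.23 in shMEK5 (limma adjusted p = 0.0403) and 0.45 in shERK5 (adjusted p = 0.000385). The shMEK5 call of Rpe was lost without either shMEK5 library (adjusted p = 0.239 without replicate 1 and 0.0582 without replicate 2), without shCTRL replicate 1 (0.111) or 2 (0.108) and without shERK5 replicate 3 (0.0576). Pgls, Tkt and Rpe were also chosen after their values were seen. In the same arm, Taldo1 rose by 0.22 in shMEK5 (limma adjusted p = 0.00394; without shMEK5 replicate 2, 0.18 and 0.053) and 0.46 in shERK5 (adjusted p = 8.06e-06). Rpia rose by 0.66 in shERK5 (limma adjusted p = 1.22e-05) and had a value of -0.04 in shMEK5 (adjusted p = 0.647).

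HIF targets outside the list moved in both directions. In shMEK5, 7 of the 19 tested rose and 8 fell, and in shERK5 9 rose and 6 fell. Adm, the peptide hormone adrenomedullin, rose from 0.735 ± 0.0206 CPM in shCTRL to 2.85 ± 0.0714 CPM in shMEK5 (limma adjusted p = 3.77e-06) and 4.36 ± 0.217 CPM in shERK5 (adjusted p = 1.6e-07); it passed the 1 CPM filter through the knockdown libraries alone. Ddit4, an inhibitor of mTORC1 that also answers other stresses, fell from 47.1 ± 6.38 CPM to 23.8 ± 2.66 CPM in shMEK5 (limma adjusted p = 0.000132) and 14.5 ± 1.33 CPM in shERK5 (adjusted p = 1.17e-06). Among HIF subunits and regulators, 3 of 9 were called higher and 3 lower in shMEK5, and 3 higher and 2 lower in shERK5. Vhl, which marks HIF-1α for destruction, rose by 0.43 in shMEK5 (limma adjusted p = 0.00053) and 0.60 in shERK5 (adjusted p = 1.51e-05), and its partner Eloc by 0.34 (adjusted p = 0.000531) and 0.36 (adjusted p = 9.25e-05). Of 6 Myc and glucose-sensing regulators, 1 was called higher and 1 lower in shMEK5, and 1 lower in shERK5. Myc, which also drives glycolytic genes, rose in shMEK5 (0.45, limma adjusted p = 0.0113), and Mlx, the partner of the glucose-sensing factors, fell there (-0.33, adjusted p = 0.011); without shMEK5 replicate 1 both calls ended (0.41 and -0.19, adjusted p = 0.0786 and 0.135). In shERK5, Myc had a value of 0.08 (limma adjusted p = 0.504) and Mlx 0.00.

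**Figure D5:**
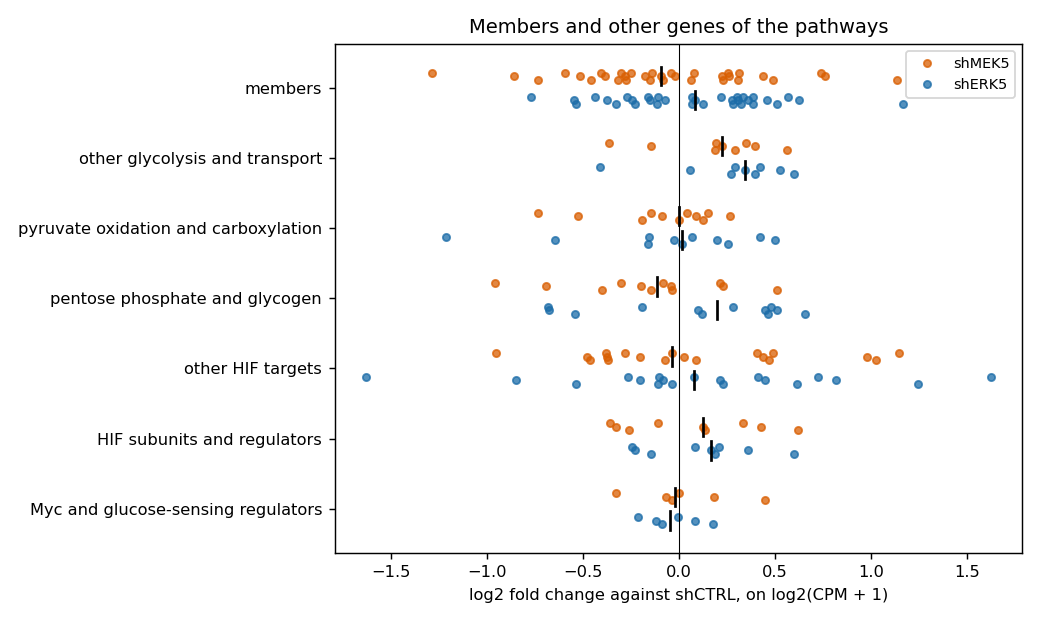
Log2 fold change against shCTRL on log2(CPM + 1) of the tested genes of each list, with shMEK5 in orange and shERK5 in blue; points are genes and black bars are list medians. The 33 members spread on both sides of 0, with medians of -0.09 and 0.08, and the other glycolysis and transport genes have medians of 0.22 and 0.35.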

How the data were processed

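Total RNA, depleted of ribosomal RNA, was sequenced from 8 libraries of 4T1 cells with a stranded kit, per the labels' protocols. STAR and mouse genome build mm10 (GRCm38) stand in the submitters' processing notes, and no source used here gives the aligner's version, the annotation, the counting program or its strand setting. CPM as deposited were scaled by the authors so that the gene-assigned reads of each library sum to 1000000. Within 0.01 read, 100% of values above 0 were whole multiples of 1 read, so reads were recovered as well. The members and lists were chosen with earlier results of these data known.

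Genes with at least 1 CPM in at least 2 libraries were tested with limma 3.58.1 (trend, robust) on log2(CPM + 1), fitted jointly to the 8 libraries as 3 group means, with Benjamini-Hochberg adjustment over 11623 genes. Fold changes on this scale understate those of low genes. The step was tested on simulated data. Sampling noise alone did not account for the differences between any pair of replicates, so none was a mere resampling of another's reads. The check cannot tell whether libraries came from the same RNA or culture. Alternatives were RLE, TMM and totals without the 20 highest genes, a pseudocount of 0.25, other filters and moderation, only the groups compared, a replicate block, edgeR 4.0.16 and DESeq2 1.42.0 on recovered reads, and each library left out. Full values are given for Gapdh, Hif1a and genes called with a log2 fold change of at least 0.5 in size in a knockdown, and up to 2 genes per further list with the smallest adjusted p are named. Names came from RefSeq, exon models, copies and overlaps from GENCODE (GRCm38). Limits of 0 cover counting error only, and values after ± are limma standard errors or SDs between libraries.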

Additional observations from a re-analysis of the deposited data

Results flagged for a closer look

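4 genes of the list and of the further lists were called in opposite directions in the 2 knockdowns, and the difference between the knockdowns was itself tested with limma. The share of all tested genes called in opposite directions was not computed, so the count only describes these genes. Hk1 differed by 0.60 on the log2 scale, shERK5 minus shMEK5 (adjusted p = 0.00013): it was below shCTRL in 2 of 2 shMEK5 libraries and above it in 3 of 3 shERK5 libraries. Plod2, a lysyl hydroxylase that prepares collagen for cross-linking and a known HIF target, differed by -1.26 (adjusted p = 6.64e-07). Its mean was 92.8 CPM in shCTRL, 123 CPM in shMEK5 (0.41, adjusted p = 0.000642) and 51.1 CPM in shERK5 (-0.85, adjusted p = 1.34e-06). P4hb, protein disulfide isomerase and the β subunit of the collagen prolyl hydroxylases, differed by 0.78 (adjusted p = 4.88e-06). Its mean was 616 CPM in shCTRL, 475 CPM in shMEK5 (-0.37, adjusted p = 0.000422) and 820 CPM in shERK5 (0.41, adjusted p = 5.98e-05). Gbe1, the glycogen branching enzyme, differed by 0.58 (adjusted p = 5.3e-05). Its mean was 16.0 CPM in shCTRL, 12.8 CPM in shMEK5 (-0.30, adjusted p = 0.0025) and 19.6 CPM in shERK5 (0.28, adjusted p = 0.00129). Plod2, P4hb and Gbe1 were chosen after their values were seen and are from the further lists rather than of the 35 genes. The α subunit genes P4ha1 and P4ha2 rose in both knockdowns, while the β subunit gene P4hb fell in shMEK5 and rose in shERK5.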

How the results depend on the processing

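Under 19 alternatives, 16 of the 23 members called in shMEK5, 22 of the 26 called in shERK5 and 7 of the 13 called between the knockdowns were called in the same direction throughout. Those lost at least once were Pfkp, Pfkfb4, Tpi1, Pgk1, Eno1, Pkm and Bnip3l in shMEK5, Pfkp, Aldoa, Egln1 and Hilpda in shERK5, and Pfkm, Pfkfb4, Pgam1, Slc16a1, P4ha2 and Hif1a between the knockdowns. Gpi1 in shMEK5, not called in the main setting, was called under 10 of the 19. The cause was not tested.

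Between the knockdowns, members called lower numbered 5 with DESeq2, against 3. Leaving out a library in turn gave 7 to 15 members called, 6 to 12 higher and 1 to 4 lower, each lowest without shMEK5 replicate 1, and as low for those called lower without shMEK5 replicate 2 or shERK5 replicate 1. A lone shMEK5 library was assumed to vary like the other groups. The deviations of same-numbered libraries correlated at -0.06, -0.19 and 0.17 between shCTRL and shERK5, -0.13 and 0.03 between shCTRL and shMEK5, and 0.46 and 0.52 between the knockdowns (2 pairs). The 2 shMEK5 libraries deviate from their mean by equal and opposite amounts, so the 2 values of a comparison with shMEK5 are not independent. Not every pair was above 0.1, so the numbers were not taken to pair the samples. With the replicate number as a block (the replicate block), 24 members were called in shMEK5, 25 in shERK5 and 13 between the knockdowns, 12 higher and 1 lower. Between the knockdowns the block added Aldoa (adjusted p = 0.0203) and Tpi1 (0.0193) and lost Pfkm (0.0695) and P4ha2 (0.0651), and the difference of Pfkfb3 between the knockdowns turned to -0.0179.

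Values that changed sign were all uncalled in the main setting. Hilpda in shMEK5 was 0.00162 with TMM, 0.00324 with edgeR and 0.000199 with DESeq2. With a library left out, the log2 fold change in shMEK5 ran from -0.0825 to 0.0440 for Hilpda, -0.00858 to 0.107 for Pgam1, -0.139 to 0.0588 for Gapdh and -0.108 to 0.0222 for Rpia. In shERK5 it ran from -0.390 to 0.163 for Car9, -0.0582 to 0.0470 for Mlx and -0.0350 to 0.171 for Myc. Between the knockdowns it ran from -0.0281 to 0.0794 for Pfkfb3, -0.109 to 0.0271 for Eno1, -0.0984 to 0.0462 for Ldha and -0.138 to 0.0284 for Bnip3l.

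With 1 added to each CPM, the log2 ratio of Aldoc to Aldoa was -6.17, -6.94 and -6.45 in shCTRL, shMEK5 and shERK5, that of Pdk1 to Pdk3 1.36 in shCTRL and 1.01 in shMEK5, that of P4ha1 to P4ha2 3.07 in shCTRL and that of Bnip3 to Bnip3l -2.47 in shMEK5. Per kb of the longest transcript, Eno1 ranked 5, Ndrg1 6, Hif1a 7, Pgk1 8, Slc16a1 9 and Hk2 13. Depth limits the statements on Slc2a3 and Slc16a3, which were near 0 reads.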
